A study of Mus musculus with 8 samples.

Results

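The 9 genes described here are imprinted genes that regulate growth: Igf2, H19, Igf2r, Cdkn1c, Dlk1, Meg3, Peg3, Plagl1 and Grb10, out of 22878 gene symbols measured. The set was chosen by the RPKM of Igf2, which was above that of the compared populations in 2 of the 4 sorted populations; the other 8 are well-known imprinted growth genes. The pattern of Igf2 is therefore given as a description with no test. Polyadenylated RNA was sequenced from progenitors of innate lymphoid cells (ILCs, lymphocytes without rearranged antigen receptors) in the marrow of C57BL/6 mice, an inbred strain, with 2 libraries per population and 8 in all. Common lymphoid progenitors (CLP) lacked lineage markers and integrin α4β7 and carried Flt3, CD127, Kit and Sca-1. Common helper-like innate lymphoid progenitors (ChILP) lacked lineage markers, Flt3 and ST2 and carried integrin α4β7, Kit and CD127. PD-1+ cells, labelled as progenitors of non-LTi ILCs (LTi, lymphoid tissue inducer), had the ChILP surface with PD-1 and no CCR6. CCR6+ cells, named as LTi progenitors, had the ChILP surface with CCR6 and no PD-1. The labels give no treatment, genotype change or age for any group. CLP and ChILP were enriched by removing lineage-positive cells, and PD-1+ and CCR6+ cells by magnetic capture of cells with integrin α4β7. The design names 2 comparisons, that of ChILP with CLP and that of PD-1+ with CCR6+ cells, and each pairs populations enriched by the same route.

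Imprinted genes are transcribed mainly from the copy inherited from a given parent, because the other copy is silenced by DNA methylation or by a long noncoding RNA. Many of them control fetal and placental growth, with growth promoters often active on the paternal copy and growth restrainers on the maternal copy. Igf2, active on the paternal copy, encodes insulin-like growth factor 2, a secreted fetal growth factor that signals through the Igf1 and insulin receptors. H19 is a maternally transcribed long noncoding RNA whose gene lies next to Igf2 and shares its enhancers, and it is the host of the microRNA miR-675. Igf2r encodes a receptor that removes IGF2 from the cell surface and sends it to lysosomes. In marrow these genes are known mostly from quiescent stem cells. Since the mice were inbred, these reads do not separate the parental copies.

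Igf2 is transcribed from several promoters on the minus strand of chromosome 7, and the deposited tables hold 3 of its transcripts. They differ in their first exon (leader) and share the downstream exons with the coding sequence. Shown is the promoter window of NM_001122737, from RefSeq on GRCm38.p6, with 250 bases before and 50 after the annotated start, because RefSeq and GENCODE place that start at the same base. The RefSeq window of NM_010514 is not shown as a promoter, since the GENCODE leader exon paired with that transcript, from 142658364 to 142659489, covers it whole. Capitals mark a GC box (GGGCGG) or a CCAAT box (CCAAT) on either strand.
Igf2, leader of NM_001122737, chr7:142657447-142657746, minus strand: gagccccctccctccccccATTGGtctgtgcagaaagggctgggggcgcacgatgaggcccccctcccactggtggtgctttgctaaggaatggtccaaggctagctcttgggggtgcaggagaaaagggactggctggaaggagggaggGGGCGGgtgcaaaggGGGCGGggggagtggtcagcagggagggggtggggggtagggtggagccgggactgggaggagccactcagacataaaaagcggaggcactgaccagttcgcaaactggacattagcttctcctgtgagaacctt

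This window has 63.3% G and C, 7 CpG dinucleotides, 2 GC boxes, 1 CCAAT box and no TATAAA. Among 32851 such windows of 300 bases from 27025 genes, 35.7% hold GGGCGG, 37.4% hold CCAAT and 13.6% hold TATAAA on either strand, and the median is 52.7% G and C and 7 CpG. The table of windows held 12 for 7 of the 9 genes. H19 and Cdkn1c had none. The richest in CpG was the upstream window of Grb10, with 45 CpG and 5 GC boxes, at percentile 98.1 of all windows, followed by the window of Igf2r with 34 CpG at percentile 92.3. These matches describe letters in a window, not bound sites.

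The mature strands of miR-675, which are cut from H19, are shown because reads also fell on that row of the tables in libraries with H19 reads. Capitals mark the seed, bases 2 to 8, and the 2 arms have different seeds.
mmu-miR-675-5p, chr7:142577112-142577133, minus strand, GRCm38.p6: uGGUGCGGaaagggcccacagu
mmu-miR-675-3p, chr7:142577078-142577099, minus strand, GRCm38.p6: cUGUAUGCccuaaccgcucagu

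Igf2 was read in all 4 ChILP and PD-1+ libraries and in none of the 4 CLP and CCR6+ libraries. Levels are given as RPKM, reads scaled to transcript length and library total, on the row of NM_010514. ChILP 1 and 2 had 1.13 and 0.882 RPKM, from 83 and 55 reads. PD-1+ 1 and 2 had 1.98 and 1.28 RPKM, from 116 and 84 reads. The groups with and without reads do not overlap. The exact Poisson 95% intervals ran from 0.896 to 1.40 RPKM in ChILP 1, 0.665 to 1.149 in ChILP 2, 1.63 to 2.37 in PD-1+ 1 and 1.02 to 1.59 in PD-1+ 2. With 0 reads, 3 counts set an upper limit of 0.0694 and 0.0508 RPKM in CLP 1 and 2 and of 0.0695 and 0.0510 RPKM in CCR6+ 1 and 2. The libraries were amplified and carry no molecular identifiers here, so intervals and limits cover counting error only. Nothing in the labels ties the libraries of a population to different mice, and p-values then measure a spread that may be technical.

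The order of the group levels was PD-1+ at 1.63 ± 0.492 RPKM (SD, n = 2), ChILP at 1.004 ± 0.172 RPKM (SD, n = 2), then CLP and CCR6+ with no read. The neighbours PD-1+ and ChILP cannot be told apart with these data: the counting intervals of PD-1+ 2 and ChILP 1 overlap, and the populations were enriched by different routes. Against 3 counts over both CLP libraries, Igf2 in ChILP was at least 34.6-fold higher. Against 3 counts over both CCR6+ libraries, it was at least 54.7-fold higher in PD-1+ cells. These bounds rest on the depth of the libraries without reads. Leaving out CLP replicate 1 lowered the first to 19.98, and leaving out CLP replicate 2 to 14.6. Leaving out CCR6+ replicate 1 lowered the second to 31.6, and CCR6+ replicate 2 to 23.2. In bulk samples, fewer cells with a transcript and less of it per cell cannot be told apart.

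In absolute terms the Igf2 message was scarce. Its mean level stood at percentile 21.6 of the 14341 genes with a read in ChILP and at percentile 28.0 of the 14346 genes with a read in PD-1+ cells.

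**Figure D1:**
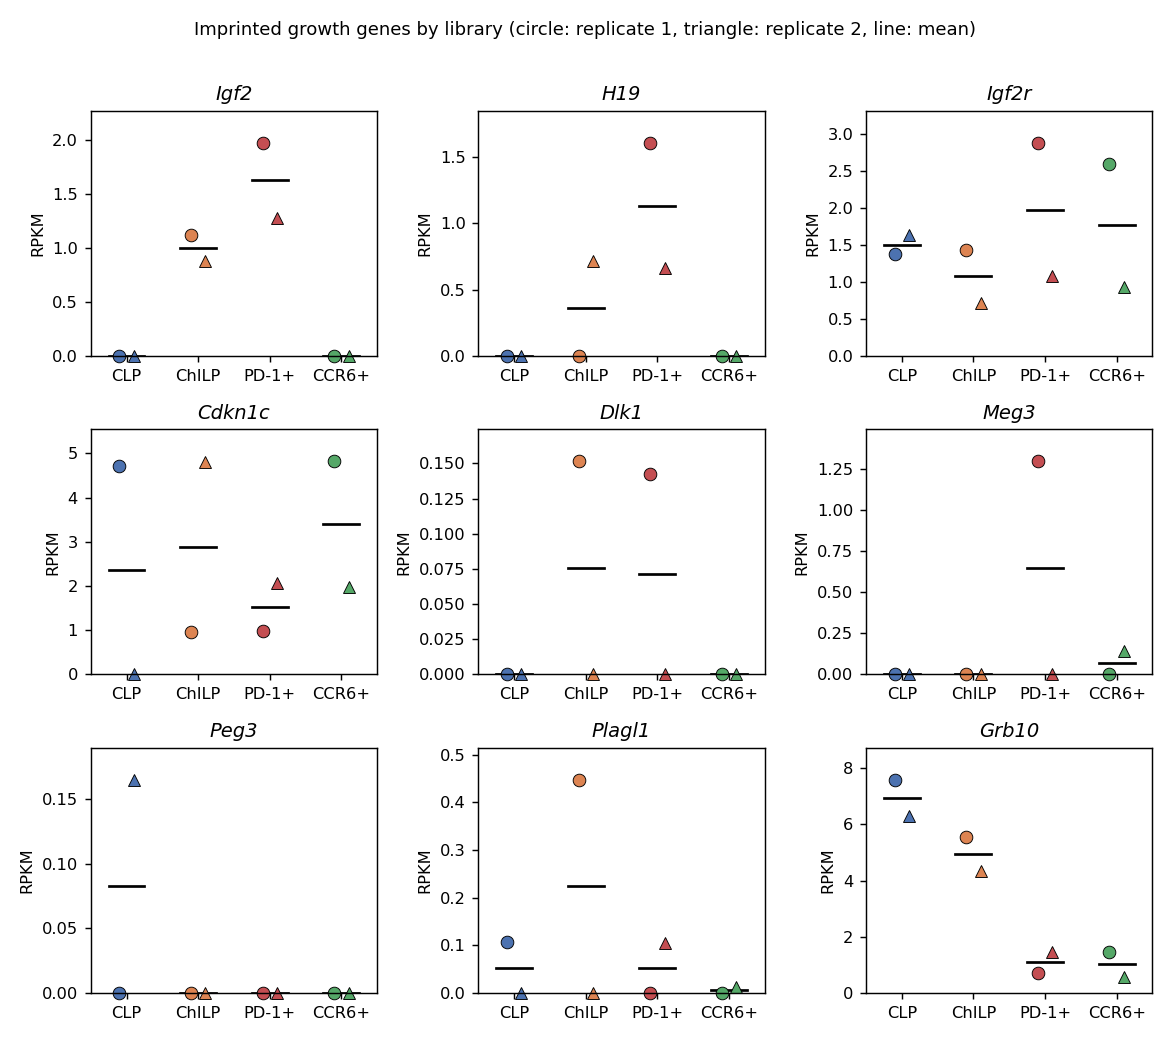
RPKM (linear axis from 0, a scale per panel) of the 9 imprinted growth genes in CLP, ChILP, PD-1+ and CCR6+ libraries; circles are replicate 1, triangles replicate 2 and lines group means. Igf2 lies between 0.882 and 1.98 RPKM in ChILP and PD-1+ libraries and at 0 elsewhere, Grb10 is above 4 RPKM in CLP and ChILP only, and Dlk1, Meg3, Peg3 and Plagl1 are at 0 in 4 or more libraries.

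The reads fell mostly on the part that the Igf2 transcripts share. NM_010514, NM_001122737 and NM_001122736 had 83, 82 and 79 reads in ChILP 1, 55, 41 and 41 in ChILP 2, 116, 108 and 106 in PD-1+ 1 and 84, 68 and 68 in PD-1+ 2. Since each row counts the shared exons again, only the differences bear on the leaders. NM_010514 exceeded NM_001122737 by 1 read in ChILP 1, 14 in ChILP 2, 8 in PD-1+ 1 and 16 in PD-1+ 2, so by reads it was ahead in all 4 libraries. It is also the longer transcript, with 4038 against 3691 bases. By RPKM, NM_001122737 was the higher in ChILP 1 (1.22 against 1.13) and PD-1+ 1 (2.01 against 1.98). NM_001122737 exceeded NM_001122736 by 3 and 2 reads in the number 1 libraries and by 0 in the number 2 libraries. The excess in NM_010514 is a difference of rows, not a count of leader reads, and it mostly came from ChILP 2 and the PD-1+ libraries. The row of Igf2as, antisense to Igf2, had 0 reads in all 8 libraries, and so did Mir483, which lies inside Igf2. The libraries copy polyadenylated RNA, so the 0 of Mir483 is no measure of that microRNA.

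**Figure D2:**
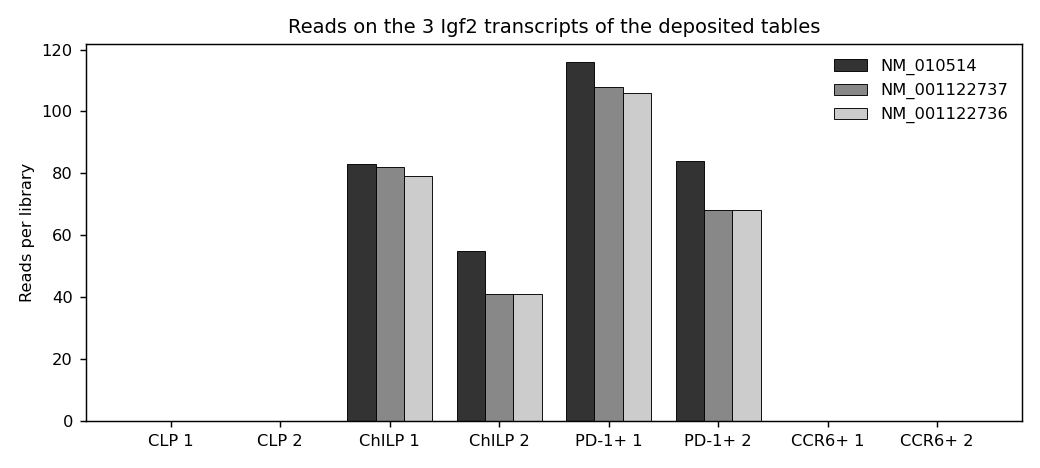
Reads per library (linear axis from 0) on the 3 Igf2 transcripts, 1 bar per transcript, in the 8 libraries. Bars are present only in ChILP and PD-1+ libraries, and the bar of NM_010514 is the highest in each, by 1 to 16 reads over NM_001122737.

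H19, the noncoding neighbour of Igf2, had reads in 3 of the 4 libraries with Igf2 reads and in none of the others. Its level was 0 in ChILP 1, 0.719 RPKM (29 reads) in ChILP 2, 1.61 RPKM (61 reads) in PD-1+ 1, 0.659 RPKM (28 reads) in PD-1+ 2, and 0 in all CLP and CCR6+ libraries. The PD-1+ and CCR6+ groups do not overlap, whereas ChILP 1 was at 0 like the CLP libraries. H19 was at least 24.4-fold higher in PD-1+ than in CCR6+ cells and at least 7.27-fold higher in ChILP than in CLP, against 3 counts over the group at 0. Without ChILP replicate 2 no H19 read was left in that comparison. The bound for ChILP was 15.9 without ChILP replicate 1 and 4.20 and 3.07 without CLP replicate 1 or 2, and the bound for PD-1+ cells was 14.5 without PD-1+ replicate 1 and 14.1 and 10.3 without CCR6+ replicate 1 or 2. H19 passed the filter on low counts only through the libraries where it was high, so its p-values are given as a description. It did not pass the test across all genes: the edgeR quasi-likelihood p was 0.0591 with a Benjamini-Hochberg adjusted p of 0.850 for PD-1+ against CCR6+, and 0.0943 with an adjusted p of 0.944 for ChILP against CLP. The row of Mir675 had 4 reads in ChILP 2 and 8 in PD-1+ 1, which are the libraries with the highest H19 levels, and 0 elsewhere. Those reads lie on the H19 transcript and are no measure of the mature microRNA.

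That test ran on the counts of 13619 genes that passed a filter on low counts, and a gene was called at an adjusted p under 0.05. In ChILP against CLP it called 3 genes, or 0.022%, and 5.82% had an unadjusted p under 0.05, while the DESeq2 Wald test called 263 and edgeR with a replicate block 0. In PD-1+ against CCR6+ it called 0 genes, or 0%, with 5.88% (801 genes) at an unadjusted p under 0.05, and the DESeq2 Wald test called 131. Of the 9 genes, 5 passed the filter (Igf2, H19, Igf2r, Cdkn1c and Grb10). Of the 4 tested besides Igf2, 0 were called and 0 had an unadjusted p under 0.05 in either comparison, and 0 were called under each of the 18 alternatives, DESeq2 included. With 2 libraries a group, a miss of the threshold does not show that levels were alike. How many of all genes have groups that do not overlap was not counted, so a lack of overlap is given as a description only.

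Igf2r, the clearing receptor, was read in all 8 libraries at a low level. CLP had 1.38 and 1.63 RPKM, ChILP 1.44 and 0.718, PD-1+ 2.88 and 1.08, and CCR6+ 2.60 and 0.938. The groups overlap in both comparisons. The log2 fold change was -0.43 (SE 0.655, edgeR adjusted p = 1.0) for ChILP against CLP and 0.07 (SE 0.651, edgeR adjusted p = 1.0) for PD-1+ against CCR6+. The latter turned to -0.73 without PD-1+ replicate 1 and to -0.50 without CCR6+ replicate 2. Its antisense silencer Airn, a paternally transcribed noncoding RNA that overlaps Igf2r, had 2.2 and 0.879 RPKM in CLP, 0.744 and 0.0463 in ChILP, then 0.885 and 0 in the PD-1+ and 0 and 0.196 in the CCR6+ libraries. Strand is not given for the counting, so reads from overlapping antisense partners cannot be assigned.

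Grb10, an adaptor that restrains signalling by the insulin and Igf1 receptors, had the highest mean RPKM of the 9 over the 8 libraries. CLP libraries had 7.58 and 6.31 RPKM, ChILP 5.54 and 4.34, PD-1+ 0.717 and 1.46 and CCR6+ 1.47 and 0.566. All CLP and ChILP libraries stood above all PD-1+ and CCR6+ libraries. The CLP libraries also stood above the ChILP libraries, while the PD-1+ and CCR6+ libraries overlapped. Group means were 6.95 ± 0.901 RPKM in CLP, 4.94 ± 0.848 in ChILP, 1.09 ± 0.528 in PD-1+ and 1.02 ± 0.639 in CCR6+ cells (SD, n = 2 each). The widest gap thus lay between the enrichment routes and not within a tested pair. The log2 fold change was -0.45 (SE 0.563, edgeR adjusted p = 1.0) for ChILP against CLP and 0.07 (SE 0.580, edgeR adjusted p = 1.0) for PD-1+ against CCR6+, the latter -0.63 without PD-1+ replicate 2, -0.48 without CCR6+ replicate 2 and -0.03 with counts summed over transcripts. PD-1+ and CCR6+ cells fall within the ChILP gate, and population and enrichment route cannot be told apart for this gap. Summed erythroid transcripts (5 of 5 markers read) also differed by route, from 987 to 6214 RPKM after depletion and from 27760 to 39990 RPKM after capture, and their part in the result was not tested.

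In all, 2 transcripts of Grb10 were in the tables. The longer row, NM_010345, had the more reads in every library, exceeding NM_001177629 by 29, 23, 74 and 27 reads in CLP 1 and 2 and ChILP 1 and 2, and by 5, 19, 1 and 2 reads in PD-1+ 1 and 2 and CCR6+ 1 and 2.

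Cdkn1c encodes p57, a cyclin-dependent kinase inhibitor that holds cells out of the cycle, and lies in the same imprinted region of chromosome 7 as Igf2. Its level was 4.72 RPKM (98 reads) in CLP 1 and 0 in CLP 2, 0.959 and 4.80 in ChILP 1 and 2, 0.992 and 2.06 in PD-1+ 1 and 2, and 4.82 and 1.98 in CCR6+ 1 and 2. The other Cdkn1c transcript, of 1904 bases, had 523 reads over the 8 libraries, against 525 for this one. Libraries of 1 group differed as much as groups did. The log2 fold change was 0.28 (SE 1.78, edgeR adjusted p = 1.0) for ChILP against CLP and -1.19 (SE 1.799, edgeR adjusted p = 0.952) for PD-1+ against CCR6+. The former turned to -0.73 without CLP replicate 2, the library at 0, and to -1.31 without ChILP replicate 2. Without CLP replicate 1 no CLP read is left, and the fitted value was 9.28 (edgeR adjusted p = 0.337), with a bound of at least 25.8-fold higher in ChILP against 3 counts.

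The remaining 4 members had few reads, and within any group at most 1 library held them. Dlk1, a membrane protein related to the Notch ligands and expressed from the paternal copy, had 0.151 RPKM (12 reads) in ChILP 1 and 0.143 RPKM (9 reads) in PD-1+ 1 and no read in the other 6 libraries. The other Dlk1 transcripts had 14 to 20 reads each over the 8 libraries. Meg3, the maternally transcribed noncoding RNA beside Dlk1, had 1.30 RPKM (36 reads) in PD-1+ 1, 0.144 RPKM (4 reads) in CCR6+ 2 and no read in the other 6 libraries. That level belongs to a transcript of 1913 bases. On the longer Meg3 transcripts, of 11410 and 11422 bases, PD-1+ 1 had 22 and 13 reads, or 0.133 and 0.0783 RPKM. Peg3, a zinc finger protein expressed from the paternal copy, had 0.165 RPKM (16 reads) in CLP 2 and no read in the other 7. Plagl1, a zinc finger transcription factor known to act on other imprinted genes, had 0.107 RPKM (6 reads) in CLP 1, 0.448 (43 reads) in ChILP 1, 0.105 (9 reads) in PD-1+ 2 and 0.0130 (1 read) in CCR6+ 2, with 0 in the other library of each group. None of these 4 passed the filter. In each, the reads of a group came from 1 library, so no level of a population can be given.

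Over the 9 genes and 8 libraries, 33 of 72 values were 0, and Igf2r and Grb10 alone had a read in every library. Values that are high in 1 library and 0 in its replicate were not limited to these genes. Among all genes with a mean of 0.5 to 5 RPKM over the 8 libraries and at least 25 reads in a library of the group, the other library was at 0 for 2.28% (83 of 3644) in CLP, 5.10% (199 of 3901) in ChILP, 7.25% (277 of 3820) in PD-1+ and 5.91% (212 of 3587) in CCR6+ cells. Cdkn1c in CLP is in that count, with 98 reads against 0. A 0 for a gene at this level is therefore a weaker statement than its counting limit. H19, Dlk1, Meg3, Peg3 and Plagl1 averaged under 0.5 RPKM and lie outside that range, and no share was computed at their level. Igf2, which was chosen for its pattern, was at 0 in both libraries of 2 groups and above 50 reads in both libraries of the other 2. How many genes drop out of both libraries of a group was not counted.

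How common the read pattern of Igf2 was among all genes was counted after its values had been seen. Of 22878 genes, 7481 had no read in the 4 CLP and CCR6+ libraries, and 3 of these had 25 or more reads in each ChILP and PD-1+ library, namely Igf2, Fam179a and Fgf15. Fgf15, a hormone-like fibroblast growth factor best known from the ileum, had 9.24 and 10.3 RPKM in ChILP and 54.1 and 3.68 RPKM in PD-1+ libraries. Fam179a had 4.42 and 9.95 RPKM in ChILP and 11.3 and 3.16 RPKM in PD-1+ libraries. The reverse pattern was met by 1 gene, Klhl30. With a limit of 10 reads, 4 genes had the pattern, and it was met by 4 to 6 genes when any 1 library was left out, namely 6 without CCR6+ replicate 2 and 5 without CLP replicate 1 or without ChILP replicate 1.

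By shape over all 8 libraries, the genes most like Igf2 were taken among 6914 genes averaging 10 RPKM or more in some group, as the smallest mean absolute difference of centred log2(RPKM + 1). They were Cpa3 (difference 0.197), Gstm4 (0.221), Chmp1b (0.228), Lpar6 (0.230), Snord22 (0.236), Wbscr27 (0.261), Pigl (0.270) and Gpr107 (0.275). These genes were read in every library and each was higher in all 4 ChILP and PD-1+ libraries than in all 4 others, by the choice of the rule, without the absence seen for Igf2. Cpa3, a protease of mast cells and their progenitors, had 30.4 and 31.7 RPKM in CLP, 69.8 and 66.0 in ChILP, 108 and 68.8 in the PD-1+, and 33.7 and 61.0 in the CCR6+ libraries. Lpar6, a receptor for lysophosphatidic acid, had 12.95 and 15.3, 27.0 and 45.5, 53.2 and 29.7, and 17.7 and 16.2 RPKM in the same order.

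**Figure D3:**
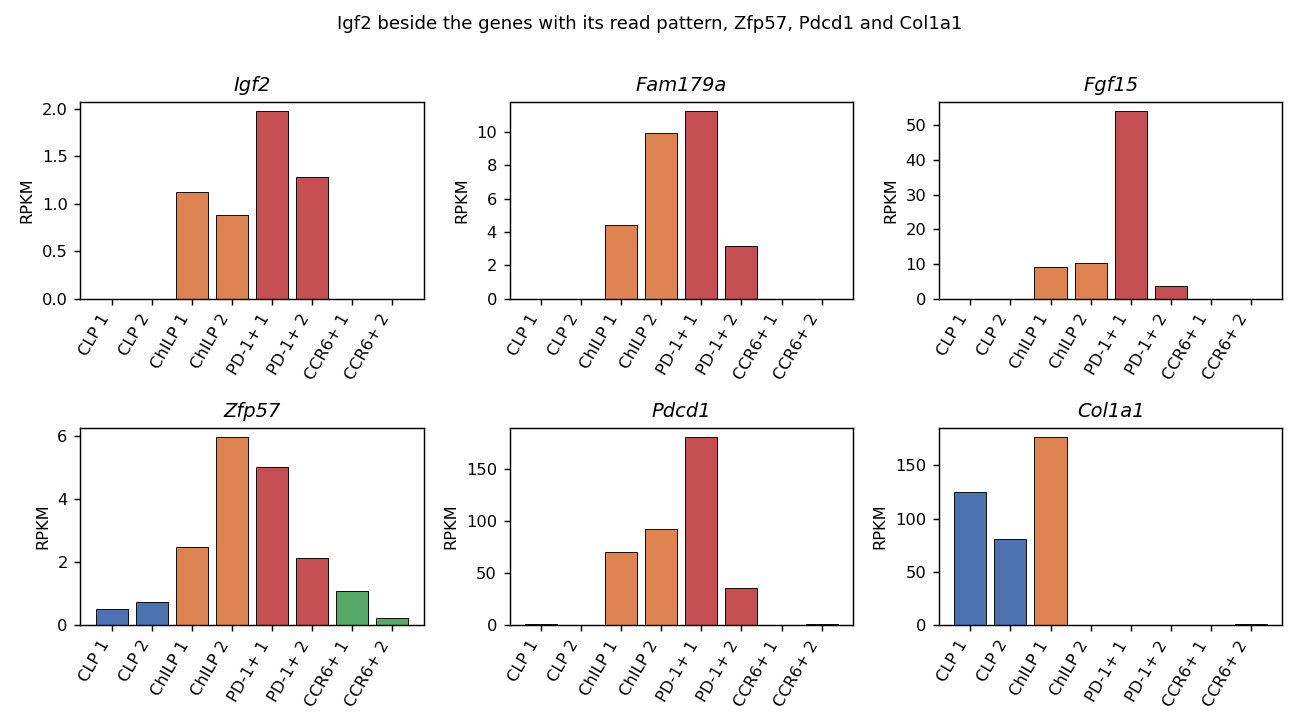
RPKM (linear axes from 0, a scale per panel) per library of Igf2, of the genes that share its read pattern (Fam179a and Fgf15), of Zfp57, of Pdcd1, which encodes PD-1, and of Col1a1, a stromal collagen. Fam179a and Fgf15 are at 0 in the same 4 libraries as Igf2, while Col1a1 is 80.9 to 176 RPKM in CLP 1, CLP 2 and ChILP 1 and at most 1.07 RPKM elsewhere.

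The labels were checked against transcripts. Reads on genes ran from 7685188 to 13997897 per library. Summed CLP markers (Flt3, Dntt, Il7r and Rag1) were 942 and 1646 RPKM in CLP and 30.1 to 111 RPKM elsewhere. Il7r alone did not separate CLP (26.9 and 33.7 RPKM) from ChILP (19.2 and 35.4 RPKM). Summed ChILP markers (Id2, Gata3, Tcf7 and Zbtb16) were 32.0 and 32.6 RPKM in CLP and 190 to 1296 RPKM elsewhere. Zbtb16 alone was no higher in CCR6+ (0.732 and 1.23 RPKM) than in CLP libraries (2.28 and 0.855 RPKM). Pdcd1, whose protein defines the PD-1 gate, was 70.9 and 92.9 RPKM in ChILP and 181 and 36.3 RPKM in PD-1+ libraries, against at most 1.10 RPKM in the others, so its high libraries are those with Igf2 reads. Ccr6 was 84.2 and 23.6 RPKM in CCR6+ libraries, and PD-1+ 2, sorted as lacking CCR6, had 8.11 RPKM. Without PD-1+ replicate 2, the bound for Igf2 in PD-1+ over CCR6+ cells was 67.2.

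Cells outside the studied populations could carry imprinted growth genes, so their marker lists were set beside Igf2. Summed stromal markers, with all 9 read, were 204 and 129 RPKM in CLP, 255 and 27.6 in ChILP, 18.6 and 15.5 in the PD-1+, and 30.0 and 18.7 in the CCR6+ libraries. Col1a1 made up 125 of the 204 RPKM in CLP 1, and other members of the list had other patterns. Pdgfrb, a growth factor receptor of stromal cells, had 4.85 and 4.002 RPKM in CLP and 2.66 and 2.04 in ChILP libraries. It had 1.67 and 0.887 RPKM in the PD-1+ libraries, against 0.363 and 0.266 in the CCR6+ libraries, with no overlap, as for Igf2. The log2 fold change there was 1.94 (SE 0.529, edgeR adjusted p = 0.690). In ChILP against CLP it went the other way from Igf2, with a log2 fold change of -0.87. Lum, a matrix proteoglycan, had 2.89 and 0.326 RPKM in the PD-1+ libraries, against 0 and 0.265 in the CCR6+ libraries. Cxcl12 went the other way there without overlap, at 10.95 and 12.75 RPKM in the PD-1+ and 27.5 and 16.0 in the CCR6+ libraries. Lepr and Col1a1 were also lower in PD-1+ cells by log2 fold change (-0.44 and -1.12). The median log2 fold change of the list was 0.25 in PD-1+ against CCR6+ and -0.185 in ChILP against CLP. The part of stromal transcripts in the Igf2 pattern was not tested. Summed endothelial markers (5 of 5 read) ranged from 29.4 to 46.9 RPKM in CLP and ChILP and from 16.5 to 41.3 in the captured cells. Stem cell markers (5 of 5 read) ranged from 14.2 to 19.9 and from 5.68 to 8.66 RPKM. Meis1, a homeobox factor of stem cells, had 13.8 and 13.1 RPKM in CLP and 4.82 and 8.40 in ChILP (edgeR adjusted p = 0.783). Hlf was also lower in ChILP (log2 -0.41), while Slamf1, Procr and Mecom were higher (log2 1.62, 1.01 and 0.53). The median log2 fold change of the list was 0.53 in ChILP against CLP and 0.07 in PD-1+ against CCR6+. Of the fetal liver markers Alb and Lin28b were at 0 in all libraries, and the sum with Afp was at most 0.628 RPKM. Mast cell and basophil markers (4 of 4 read) summed to 267 and 239 RPKM in CLP, 397 and 207 in ChILP, 369 and 781 in the PD-1+, and 474 and 861 in the CCR6+ libraries. Within that list Gata2, a transcription factor of stem cells and mast cell progenitors, had 29.3 and 22.6 RPKM in CLP and 45.5 and 33.2 in ChILP (log2 0.65, SE 0.257, edgeR adjusted p = 0.808). It went the other way in the second pair, with 18.6 and 19.9 RPKM in the PD-1+ and 23.2 and 28.2 in the CCR6+ libraries (log2 -0.47). Cpa3, named above as like Igf2, was higher in ChILP than in CLP (log2 1.18, SE 0.302, edgeR adjusted p = 0.337). It was also higher in PD-1+ than in CCR6+ cells (log2 0.82, SE 0.299, edgeR adjusted p = 0.809). Mcpt8 and Fcer1a had log2 fold changes of 0.03 and 0.49 in the first pair and -0.37 and -0.35 in the second. The median log2 fold change of the list was 0.57 in ChILP against CLP and -0.36 in PD-1+ against CCR6+. Summed megakaryocyte markers (4 of 4 read) were 490 and 351 RPKM in CLP and 1080 and 499.5 in ChILP, with no overlap, and 205 and 118 RPKM in the PD-1+ libraries, against 152 and 308 in the CCR6+ libraries. Itga2b, the platelet integrin subunit, had 38.0 and 18.6 RPKM in CLP and 127.5 and 37.8 in ChILP (log2 1.58, SE 0.565, edgeR adjusted p = 0.704), and the median log2 fold change of the list was 1.49 there and -0.63 in PD-1+ against CCR6+. Neutrophil and monocyte markers (6 of 6 read) summed to 6486 to 13310 RPKM after depletion and 14940 to 32640 RPKM after capture. Within that list Elane and Mpo went the other way. Elane was 2323 to 3379 RPKM after depletion and 331 to 685 after capture, and Mpo 2816 to 4218 and 201 to 530. The part of these cells in the Igf2 pattern was not tested.

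The rest of the IGF pathway was described from lists of its ligands, receptors, binding proteins, adaptors and RNA-binding proteins. Of 44 such genes 24 were read in all 8 libraries and 10 in none. Among 31 tested, 0 were called, 1 had an unadjusted p under 0.05 in ChILP against CLP (3.23%, against 5.82% of all genes) and 2 in PD-1+ against CCR6+ (6.45%, against 5.88%). The median log2 fold changes of the 31 were -0.07 and 0.02, beside 0.05 and 0.01 for all genes tested. These shares are close to those of all genes.

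Among the ligands, Igf1, a growth factor that also signals through the Igf1 receptor, was read in all libraries at 0.394 and 0.269 RPKM in CLP, 0.438 and 0.191 in ChILP, 2.32 and 1.91 in the PD-1+, and 1.46 and 2.54 in the CCR6+ libraries. Like Grb10, but in the opposite direction, it differed between the enrichment routes. Unlike Grb10, whose CLP libraries stood above its ChILP libraries, it overlapped within each pair. Ins1 and Ins2, the insulin genes, had no read. The signalling receptor Igf1r stood at 3.94 to 5.38 RPKM over CLP and ChILP and 2.90 to 3.56 RPKM in PD-1+ and CCR6+ libraries, with log2 fold changes of 0.12 (SE 0.250) and 0.02 (SE 0.251). Insr, the insulin receptor, ranged from 0.941 to 3.53 RPKM over the 8 libraries, and Insrr was read in CLP only, at 0.0183 and 0.188 RPKM.

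Of the proteins that bind IGFs outside the cell, Igfbp4 and Igfbp7 were the abundant ones. Igfbp4, which holds IGFs away from their receptor, had 169 and 148 RPKM in CLP, 133 and 240 in ChILP, 260 and 70.6 in the PD-1+, and 50.3 and 36.0 in the CCR6+ libraries. The PD-1+ and CCR6+ libraries do not overlap, and its log2 fold change there was 1.84 (SE 0.541) with an edgeR adjusted p of 0.729. Igfbp7 ranged from 13.6 to 73.0 RPKM. Igfbp1, Igfbpl1, Igfals, Pappa2 and Stc1 had no read. Foxo1, a transcription factor that insulin and IGF signals keep out of the nucleus, was 12.8 and 13.2 RPKM in CLP and 3.96 and 2.58 RPKM in ChILP libraries, a log2 fold change of -1.94 (SE 0.445) with an edgeR adjusted p of 0.262. Of the proteins that bind IGF2 mRNA, Igf2bp1 had no read, Igf2bp2 was under 1 RPKM in every library, and Igf2bp3 was 1.07 to 3.71 RPKM over CLP and ChILP and 0.184 to 0.387 RPKM in PD-1+ and CCR6+ libraries. Lin28b, a fetal RNA-binding protein, had no read.

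**Figure D4:**
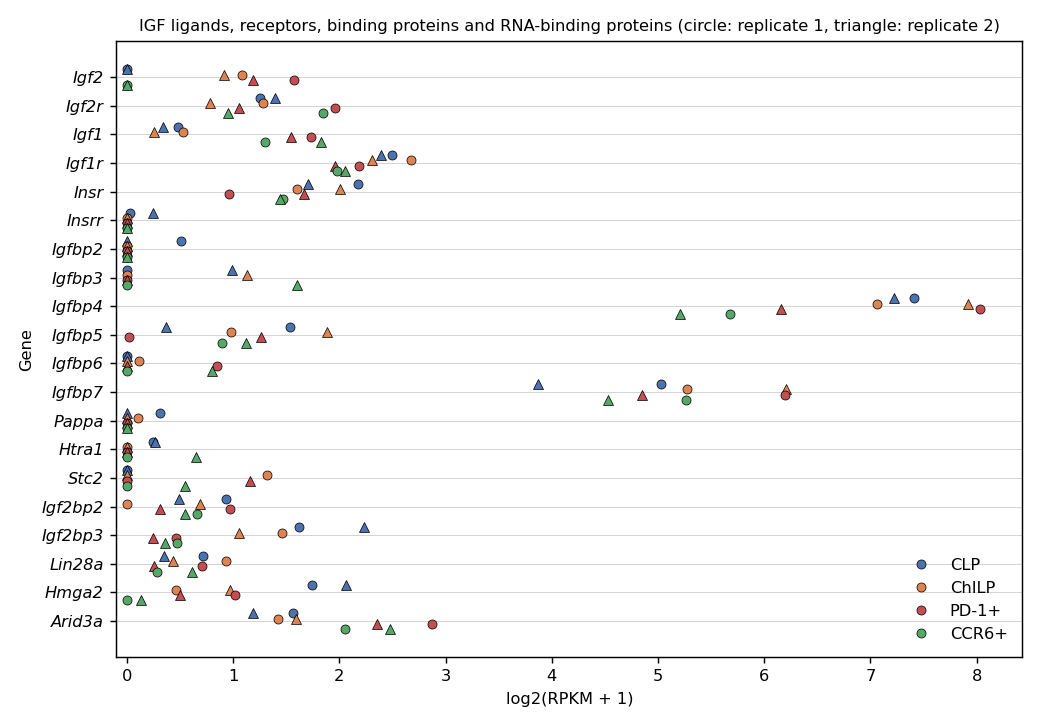
log2(RPKM + 1) of Igf2, Igf2r and the IGF ligands, receptors, binding proteins and RNA-binding proteins with a read, by library; colours are the 4 groups, circles replicate 1 and triangles replicate 2. Igfbp4 and Igfbp7 reach 260 and 73.0 RPKM, and Igf2 and the receptors lie below 6 RPKM.

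The close families of the members were read mostly in all populations. Besides Cdkn1c, the cyclin-dependent kinase inhibitors Cdkn1b and Cdkn2c were 4.49 to 17.1 and 14.6 to 49.0 RPKM, and of 5 tested 0 were called. Cdkn1a, the p53 target p21, was 69.3 ± 35.7 RPKM in CLP and 36.9 ± 1.91 in ChILP (SD, n = 2 each), with a log2 fold change of -0.83 (SE 0.326) and an edgeR adjusted p of 0.799. Plagl2, related to Plagl1, was 12.1 to 16.7 RPKM in every library, and Plag1 was under 0.5 RPKM. Grb7 and Grb14, related to Grb10, were at most 1.03 and 1.86 RPKM. M6pr, the other mannose 6-phosphate receptor beside Igf2r, was 49.0 to 104 RPKM, and 0 of 6 lysosomal partners of Igf2r were called. Of the family of Dlk1, Dll1 was 13.3 ± 7.68 RPKM in ChILP and 0.00997 RPKM in CLP (edgeR adjusted p = 0.0593) and Notch1 6.81 ± 2.05 RPKM in ChILP and 34.6 ± 7.69 in CLP (SD, n = 2, edgeR adjusted p = 0.0812), and 0 of 6 tested were called.

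Other genes listed as imprinted were set beside the members. Of 64 listed, 62 were in the tables, 29 had a read in all 8 libraries and 14 had none, among them Magel2, Usp29, Rtl1, Dio3, Rian and Mirg. Of 41 tested, 0 were called. In ChILP against CLP 2 had an unadjusted p under 0.05 (4.88%, against 5.82% of all genes) and in PD-1+ against CCR6+ 4 had one (9.76%, against 5.88%), with median log2 fold changes of 0.02 and 0.20. Gnas, the stimulatory G protein subunit with transcripts of either parental origin, was the most abundant at 315 to 513 RPKM, and Cd81, a tetraspanin, ranged from 97.1 to 267 RPKM. The listed genes were thus not silent as a class. Whether they are imprinted in these cells was not tested, since the reads of inbred mice do not separate the parental copies.

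By the naming rule, Peg13, a noncoding RNA of the paternal copy, was 7.54 ± 1.69 RPKM in CLP and 2.49 ± 1.08 in ChILP (log2 -1.53, SE 0.655, edgeR adjusted p = 0.857), and 5.02 ± 0.263 in CCR6+ and 1.56 ± 1.34 in PD-1+ cells (log2 -1.71, SE 0.662, edgeR adjusted p = 0.819). It was lower in the population of each pair that had Igf2 reads, with no overlap between libraries, and passed neither test. Peg13 was named for an unadjusted p under 0.05, which favours such a separation. Trappc9, its neighbour in the Peg13 locus, was 15.4 ± 5.47 RPKM in PD-1+ and 7.01 ± 2.82 in CCR6+ cells (log2 1.06, SE 0.388, edgeR adjusted p = 0.809). Slc22a3, a cation transporter beside Igf2r, was 4.73 ± 1.52 RPKM in PD-1+ and 1.34 ± 0.372 in CCR6+ cells (log2 1.74, SE 0.456, edgeR adjusted p = 0.690). Pon2, a paraoxonase, was 48.7 ± 0.526 RPKM in ChILP and 32.3 ± 3.66 in CLP (log2 0.64, SE 0.206, edgeR adjusted p = 0.576). Ndn, a growth suppressor of the Prader-Willi region, was 8.79 RPKM in PD-1+ 1 and 0 in PD-1+ 2 and both CCR6+ libraries, so its unadjusted call rests on 1 library. Gatm and Phlda2 differed by enrichment route like Grb10: Gatm, the first enzyme of creatine synthesis, was 61.1 to 77.8 RPKM over CLP and ChILP and 13.7 to 18.4 RPKM in the captured cells and Phlda2, a restrainer of placental growth, 6.72 to 9.09 and 0 to 1.0 RPKM. These last genes were chosen after their values were seen.

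**Figure D5:**
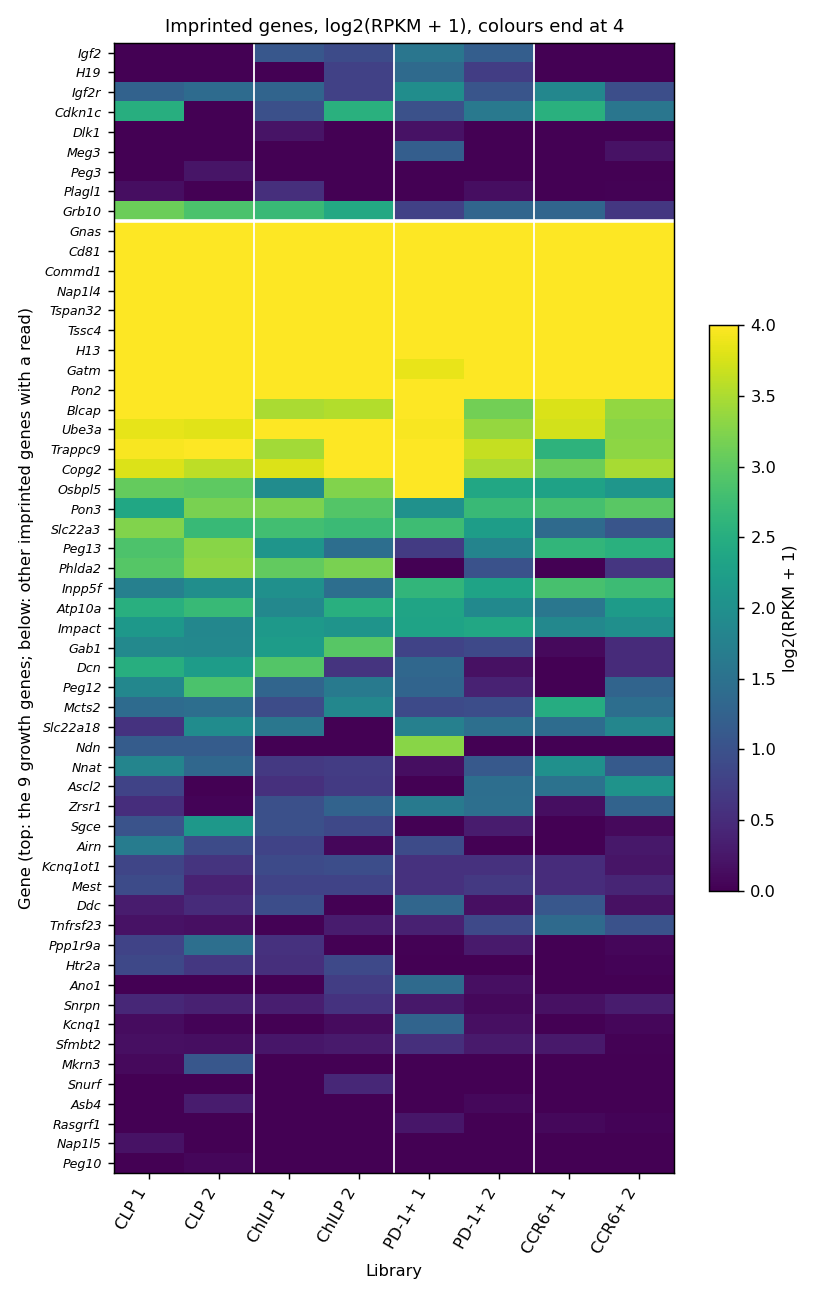
Colour map of log2(RPKM + 1), ending at 4, of the 9 growth genes (top) and the other imprinted genes with a read (below), in the 8 libraries. Gnas, Cd81 and others fill the scale in every library, while 7 of the 9 growth genes are at 0 in at least 1 library.

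Of 17 genes that set or keep imprints 14 were tested and 0 called. In ChILP against CLP 1 had an unadjusted p under 0.05 (7.14%, against 5.82% of all genes) and in PD-1+ against CCR6+ 3 had one (21.4%, against 5.88%), with medians of -0.04 and 0.20 on the log2 scale. Dnmt1, the maintenance DNA methyltransferase, was 26.1 to 51.1 RPKM, and Trim28, the corepressor of imprint-guarding zinc finger proteins, 21.2 to 190 RPKM. Zfp57, a zinc finger protein that guards methylated imprints, had 0.520 and 0.736 RPKM in CLP, 2.48 and 5.96 in ChILP, 5.03 and 2.15 in the PD-1+, and 1.08 and 0.229 in the CCR6+ libraries. Its libraries did not overlap in either comparison and were high where Igf2 was read. Zfp57 was named for an unadjusted p under 0.05, which favours such a separation, and the share of all genes with it was not counted. It did not pass the test, with log2 fold changes of 2.81 (SE 0.968, edgeR adjusted p = 0.677) and 2.37 (SE 0.955, edgeR adjusted p = 0.824). The row used for Zfp57, NR_033137, is a noncoding transcript of that gene. Ctcf, which insulates Igf2 from the shared enhancers on the maternal copy, was 15.9 ± 3.46 RPKM in PD-1+ and 8.69 ± 2.12 in CCR6+ cells (log2 0.80, SE 0.272, edgeR adjusted p = 0.793), and Tet1, an enzyme that oxidises methylated cytosine, 1.92 and 0.201 RPKM in PD-1+, and 0.00664 and 0.0536 in the CCR6+ libraries (edgeR adjusted p = 0.690).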

How the data were processed

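Per the labels' protocols, total RNA of sorted cells was amplified with Smart-seq2, which copies polyadenylated transcripts of small cell numbers. Build mm9, Bowtie2 2.2.2 and CASAVA 1.8.4 are named in the submitters' processing notes. How reads were counted, with which strand setting and how shared reads were treated is not given in the sources used here. Each table deposited by the authors lists 29257 RefSeq transcripts of 1 library, with length, RPKM and read count. For each symbol the row with the most reads on average was used, since rows of 1 gene count shared exons again. Levels are the deposited RPKM values, and tests used the deposited counts.

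Groups came from the labels. Counts of 13619 genes (filterByExpr, minimum count 10) were fitted in R 4.3.3 by edgeR 4.0.16 (robust quasi-likelihood F test, two-sided, after TMM scaling), all 4 groups in 1 fit with 4 residual degrees of freedom and a common coefficient of variation of 0.526, and p-values were adjusted over all genes (Benjamini-Hochberg). The script was tested on simulated data. Where a group had no read, folds are lower bounds against 3 counts over the group. The members and all lists were chosen with earlier results of these data known. The rule for names took all 9 members, the transcripts of a member with at least 10 reads, every IGF ligand and receptor, and up to 6 genes per comparison from each list of imprinted, IGF pathway, imprint maintenance, cyclin-dependent kinase inhibitor, PLAG and GRB7 genes with an unadjusted p under 0.05 and at least 1 RPKM in the higher group; other genes named were chosen after their values were seen. Lists covered other imprinted genes, the IGF pathway, imprint maintenance, cyclin-dependent kinase inhibitors, the PLAG, GRB7 and Notch ligand families, lysosomal partners of Igf2r, host and neighbour transcripts and cell markers. Alternatives were DESeq2 1.42.0, its size factors, limma 3.58.1 on log2(RPKM + 1) and log2(RPKM + 0.1), other filters, the 4 compared libraries alone, a replicate block, the longest transcript, the sum over transcripts and leaving out each library. Those for the read pattern were chosen after seeing the data. Promoters and microRNAs came from RefSeq tables of GRCm38.p6, and exons from GENCODE on that build. No coordinate was carried between builds.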

Additional observations from a re-analysis of the deposited data

How the results depend on the processing

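No member other than Igf2 was called under any of the 18 alternatives in either comparison, among those tested in each. The number of genes called in ChILP against CLP, 3 as reported, was 0 with DESeq2 size factors, 263 with the DESeq2 Wald test, 55 and 46 with limma on log2(RPKM + 1) and log2(RPKM + 0.1), 63 without a filter, 15 with a filter of 5 RPKM, 59 with only the 4 libraries compared, 0 with the sum over transcripts and 0 to 51 when 1 library was left out. In PD-1+ against CCR6+, 0 as reported, it was 131 with the DESeq2 Wald test, 2 with limma on log2(RPKM + 1) and 0 to 36 when 1 library was left out, the 36 without PD-1+ replicate 2. The cause was not tested. A replicate block called 0 genes in both comparisons. The replicate numbers share only a number: deviations of same-numbered libraries correlated at 0.094 for CLP with ChILP and 0.080 for PD-1+ with CCR6+. Where 1 library of a group was left, its spread was assumed to equal that of the rest.

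Of the log2 fold changes of the 4 tested members, 125 kept their sign and 7 did not, and H19 in ChILP against CLP had no value without ChILP replicate 2, since no read was left. Leaving out 1 library gave -1.31 to 9.28 for Cdkn1c in ChILP against CLP, -0.73 to 0.99 for Igf2r in PD-1+ against CCR6+ and -0.63 to 0.92 for Grb10 there, and the sum over transcripts gave -0.025 for Grb10. None of these values passed the test. The sum over transcripts moved 11 mean levels by more than 1 SD, since it counts shared exons again (Igf2 2.92 RPKM in ChILP and 4.75 in PD-1+ cells). Leaving out 1 library gave bounds for Igf2 of 14.6 to 38.4 (ChILP over CLP) and 23.2 to 67.2 (PD-1+ over CCR6+), bounds for H19 of 3.07 to 15.9 and 10.3 to 35.3, and 4 to 6 genes with the read pattern of Igf2. Reads of Dlk1, Meg3, Peg3 and Plagl1 summed to 21, 40, 16 and 59 over all 8 libraries, and within a group they came from 1 library.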

Other observations

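Some neighbours of the members had no read at all: of 11 host and neighbour transcripts in the tables, 9 were at 0 in all 8 libraries, among them Mir483, Igf2as and the microRNA rows of the Dlk1 and Meg3 region. Rian and Mirg, the noncoding RNAs downstream of Meg3, were also at 0 in all 8 libraries, including PD-1+ 1, where Meg3 had 36 reads. Gab1, a docking adaptor that is imprinted in the placenta, had 2.69 and 2.66 RPKM in CLP, 3.63 and 6.83 in ChILP, then 0.750 and 0.836 in the PD-1+ and 0.0770 and 0.409 in the CCR6+ libraries, so it too was higher in every library enriched by depletion than in every captured library. Hmga2, a fetal chromatin protein, had 2.35 and 3.17 RPKM in CLP, 0.380 and 0.962 in ChILP, then 1.02 and 0.413 in the PD-1+ and 0 and 0.0986 in the CCR6+ libraries. These genes were chosen after their values were seen.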
